A study of Cyanidioschyzon merolae strain 10D with 4 samples.

Results

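The noncoding RNA rows are the 97 of 5100 rows in the deposited expression table whose gene identifier starts with EPlCMEG, and they were chosen by that identifier alone. Of these, 34 lie on the nuclear chromosomes, 37 in the plastid genome and 26 in the mitochondrial genome. The remaining 5003 rows carry other gene identifiers. By the span of the deposited locus (its end minus its start), 75 of the 97 rows are under 200 bp and 22 are 200 bp or longer.

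Transcript levels were measured by RNA sequencing in the single-celled red alga Cyanidioschyzon merolae (strain 10D), whose plastid and mitochondrion carry genomes of their own. The 2 blue light libraries came from wild-type cells given 30 minutes of blue light at an intensity of 15 µmol m-2 s-1, and the 2 darkness libraries from wild-type cells kept in the dark. All cells were grown in 2xMA medium, and RNA of total cells was sequenced after TruSeq library preparation from total RNA. The comparison addresses which transcripts differ after a short exposure to blue light.

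Ribosomal RNAs (rRNAs) form the structural and catalytic core of ribosomes, and transfer RNAs (tRNAs) carry amino acids to them. The nucleus, the plastid and the mitochondrion of an alga each encode RNAs of this kind, which serve the ribosomes of the cytosol and of the 2 organelles. Most of a cell's RNA is rRNA. The levels below are those of the sequenced libraries and not amounts per cell.

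The nuclear rows were identified from a RefSeq gene table of assembly ASM9120v1. All 34 overlapped an annotated tRNA or rRNA gene: 25 overlapped a tRNA gene, 21 of these with the same boundaries, and 9 overlapped an rRNA gene. The reference table holds 37 tRNA and 12 rRNA genes of the nucleus and 0 genes of the organelles, so the plastid and mitochondrial rows are called by their identifiers and are given no RNA kind. Coordinates are printed as the authors' table gives them; the genome build is not given in the sources used here.

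Most of the noncoding RNA rows had no measured level. The table lists 83 of the 97 rows (85.6%) at 0 FPKM (depth-scaled fragments per kilobase of gene length) in both conditions, against 138 of the 5003 other rows (2.76%). By compartment, 27 of 34 nuclear, 31 of 37 plastid and 25 of 26 mitochondrial rows were listed at 0. A listed 0 in such a table can be an estimate that was not made, so it does not show that the RNA was absent. Of the 14 rows above 0, 11 had a value in both conditions, 1 under blue light only and 2 in darkness only.

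The zeros followed the span of the row. Among the 75 rows under 200 bp, whose spans ran from 67 to 135 bp with a median of 74 bp, 72 (96%) were listed at 0. The shortest row of the whole table with a value spanned 92 bp. By that definition the 65 noncoding RNA rows and the 2 other rows under that span were all at 0. From 92 to 199 bp, 3 of 10 noncoding RNA rows had a value, against 23 of 36 other rows. All 11 nuclear rows among those 36 spanned 139 bp or more, longer than any of the short noncoding RNA rows.

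Among rows of 200 bp or longer the share at 0 was also higher than elsewhere. It was 11 of 22 noncoding RNA rows (50%), against 123 of 4965 other rows (2.48%). The deposited span is that of the locus and not of the single gene, and 14 of the 22 rows share their locus with at least 1 other row. Of these 14, 10 were listed at 0, while of the 8 rows with a locus of their own 1 was. Within the plastid, 6 of 11 long noncoding RNA rows (54.5%) and 27 of 180 other long rows (15%) were at 0. Within the mitochondrion the shares were 3 of 4 (75%) and 19 of 34 (55.9%).

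**Figure D1:**
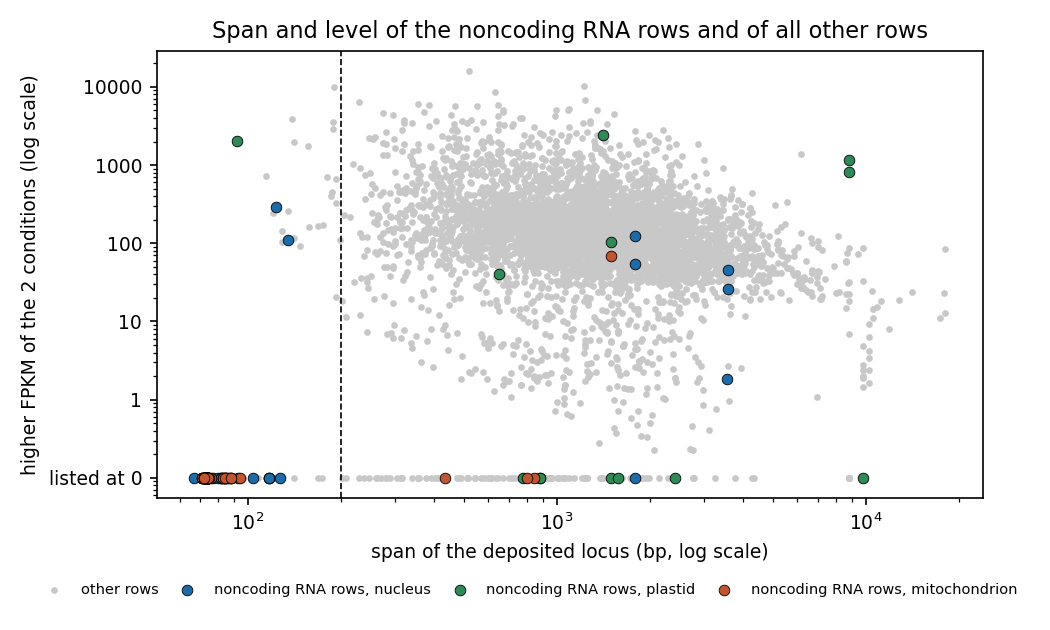
Span of the deposited locus in bp (x axis, log scale) against the higher FPKM of the 2 conditions (y axis, log scale, rows listed at 0 in both conditions drawn at the bottom) for each row; large points are noncoding RNA rows by compartment, small grey points are the other rows, and the dashed line stands at 200 bp. The noncoding RNA rows form a dense group at 0 at the left, and 11 of the 22 long rows stand above 0.

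The plot of span and level shows 2 bodies of points: a column of short rows at 0, and a few long rows that lie within the cloud of the other rows.

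The tRNA rows of the nucleus were nearly all in the first body. Of 25, 23 were listed at 0 in both conditions. The highest was EPlCMEG00000000027, at the tRNA gene CMC164R (chromosome 3, 396680 to 396803, 123 bp), with 201 FPKM under blue light and 289 FPKM in darkness and no valid test. EPlCMEG00000000034, at the tRNA gene CMH084R (chromosome 8, 214686 to 214821, 135 bp), had 108 FPKM under blue light and was listed at 0 in darkness. That blue light value is identical in all 6 deposited digits to that of the plastid row CMV068C, which spans the same 135 bp and had 262 FPKM in darkness. Neither tRNA row had a test, so no difference between the conditions is shown for either. The number of fragments behind these values is not known, and on such short rows they may rest on few fragments.

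EPlCMEG00000000073, at the tRNA gene CMQ046R, is the only tRNA row with a long locus (chromosome 17, 108255 to 109139, 884 bp), and it was listed at 0. It shares the locus with CMQ045C, which had 103 FPKM under blue light and 2.50 FPKM in darkness. The authors' deposited table gives CMQ045C a log2 fold change of 5.36 at q = 0.26, so this difference was not called.

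The 9 nuclear rRNA rows fall into short and long genes. The 3 short ones, EPlCMEG00000000054, EPlCMEG00000000058 and EPlCMEG00000000067, span 117 bp each and were listed at 0. The 6 long ones form 3 pairs, each with a gene of 3566 to 3575 bp and one of 1793 to 1795 bp, 2 pairs on chromosome 17 and 1 on chromosome 18. Such pairs are copies of a repeat whose fragments the authors' counting could divide among the copies, so the level of any single copy is uncertain.

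The copies carried unequal levels. Among the shorter genes, EPlCMEG00000000089 (CMQ401R, chromosome 17, 1042282 to 1044075) had 124 FPKM under blue light and 102 FPKM in darkness. EPlCMEG00000000057 (CMQ305R, chromosome 17, 788900 to 790695) had 53.7 FPKM under blue light and 41.3 FPKM in darkness. EPlCMEG00000000061 (CMR208R, chromosome 18, 506488 to 508283) was listed at 0 in both. The order of these 3 copies was thus the same in both conditions.

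Among the longer genes, EPlCMEG00000000047 (CMR206R, chromosome 18, 500240 to 503815) had 36.6 FPKM under blue light and 44.9 FPKM in darkness. EPlCMEG00000000070 (CMQ303R, chromosome 17, 782633 to 786206) had 25.6 FPKM under blue light and 22.9 FPKM in darkness. EPlCMEG00000000086 (CMQ403R, chromosome 17, 1046774 to 1050340) had 0.544 FPKM under blue light and 1.83 FPKM in darkness, with no valid test. The lowest longer gene therefore stood in the same pair as the highest shorter gene. On chromosome 18 the shorter gene was the one at 0 and the longer gene was the highest of its length.

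Summed over copies, the shorter genes had 177 FPKM under blue light and 143 FPKM in darkness, a log2 ratio of 0.31. The longer genes summed to 62.8 FPKM under blue light and 69.7 FPKM in darkness, a log2 ratio of -0.15. Both ratios turn direction with a single library left out, by the values of separate libraries recovered from the digits of the table: the shorter genes then ran from -2.15 to 1.19 and the longer genes from -2.73 to 0.72. No test was made of the sums.

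The plastid held the noncoding RNA row with the highest level under blue light, EPlCMEG00000000084. In darkness EPlCMEG00000000015, without a valid test, was higher at 2019 FPKM. EPlCMEG00000000084 (17721 to 19133, 1412 bp, with a locus of its own) had 2432 FPKM under blue light and 1978 FPKM in darkness. It ranked 5 among plastid rows and 39 among all rows under blue light, and 6 and 64 in darkness. This single row held 0.237% of all FPKM under blue light and 0.193% in darkness, of 0.388% and 0.629% held by all 97 noncoding RNA rows under blue light and in darkness. The larger total in darkness rests on EPlCMEG00000000015 and EPlCMEG00000000092, which have no valid test: over the 9 tested rows the shares were 0.358% under blue light and 0.291% in darkness.

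Just after EPlCMEG00000000084 on the plastid genome come EPlCMEG00000000059 (19153 to 19227) and EPlCMEG00000000095 (19229 to 19302), both listed at 0, and then a locus from 19323 to 28151 that 12 rows share. EPlCMEG00000000001 at that locus had 811 FPKM under blue light and 612 FPKM in darkness. EPlCMEG00000000092, at the same locus, was listed at 0 under blue light and had 1152 FPKM in darkness, with too few data for a test by its deposited status. The other 10 rows of the locus reached at most 31.9 FPKM under blue light and 22.6 FPKM in darkness. How the authors' counting divided fragments among the 12 rows cannot be told from the table.

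A further 3 plastid rows had values. EPlCMEG00000000031 (12052 to 13544, a locus of 4 rows) had 104 FPKM under blue light and 84.8 FPKM in darkness. EPlCMEG00000000028, at the same locus, was listed at 0. EPlCMEG00000000036 (57692 to 58343, a locus of 2 rows) had 24.7 FPKM under blue light and 40.2 FPKM in darkness, and its partner CMV089C had 5.58 FPKM under blue light and 13.6 FPKM in darkness without a valid test. Both rows at that locus were therefore lower under blue light, neither with a call.

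EPlCMEG00000000015 (85273 to 85365) is, at 92 bp, the shortest row of the table with a value. It was listed at 0 under blue light and had 2019 FPKM in darkness, with no valid test. It lies 4 bp after EPlCMEG00000000053, listed at 0, and 4 bp before CMV132C, which had 2727 FPKM under blue light and 4621 FPKM in darkness. The authors' deposited table gives CMV132C a log2 fold change of -0.76 at q = 0.00056, a call. Whether fragments of CMV132C entered the value of the shorter row was not tested, and the number of fragments behind that value is not known.

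Several plastid rows at 0 share a locus with genes that were measured. Over all compartments, 10 long noncoding RNA rows at 0 lie in shared loci: 6 in the plastid, 3 in the mitochondrion and 1 in the nucleus. They stand beside 24 rows with other identifiers, of which 7 had a valid test. Of these 7, 2 were called higher and 2 lower under blue light, where 53.2% of all 4503 tested rows were called. CMV081C and CMV082C, at the locus of EPlCMEG00000000078 (52515 to 54928), are the higher ones. CMV081C had 108 FPKM under blue light and 29.5 FPKM in darkness, and CMV082C had 66.3 FPKM under blue light and 12.7 FPKM in darkness. CMV113C, at the locus of EPlCMEG00000000049 (70620 to 80420), was lower, with 25.3 FPKM under blue light and 86.9 FPKM in darkness, and so was CMV114C, with 9.98 FPKM under blue light and 33.0 FPKM in darkness. The noncoding RNA rows beside them carried no value in either condition.

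In the mitochondrion 1 of 26 rows had a value. EPlCMEG00000000026 (26868 to 28364, 1496 bp, with a locus of its own) had 69.4 FPKM under blue light and 53.7 FPKM in darkness. Among mitochondrial rows it ranked 1 under blue light and 2 in darkness. Its nearest rows on both sides, EPlCMEG00000000016 at 66 bp and CMW060C at 62 bp, were listed at 0 in both conditions.

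**Figure D2:**
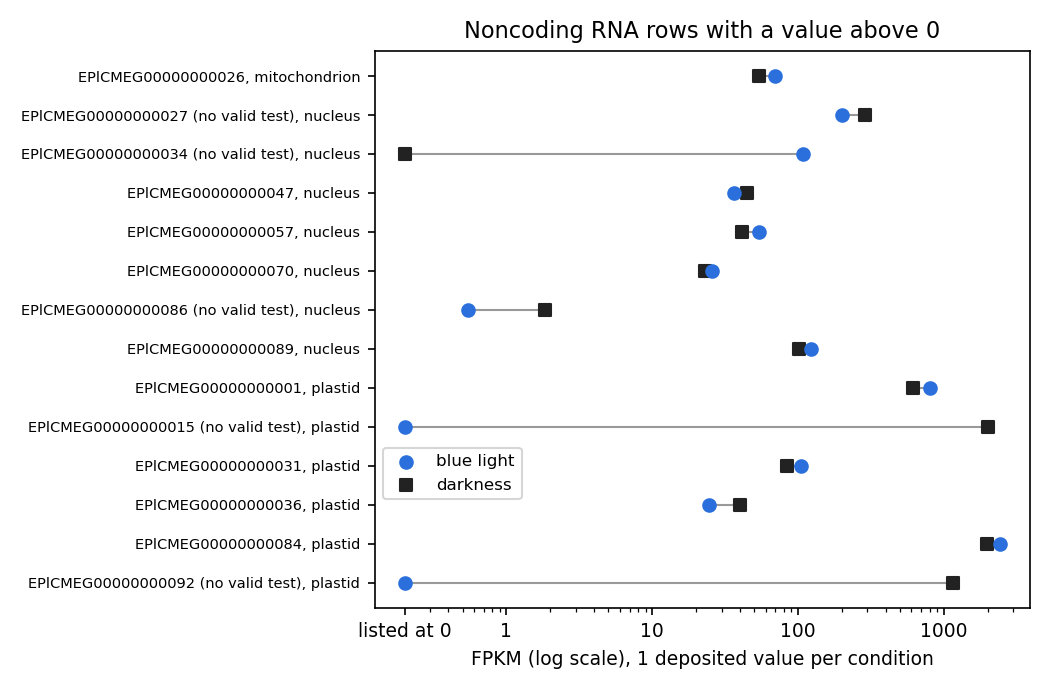
FPKM (x axis, log scale, rows at 0 drawn at the left) of the 14 noncoding RNA rows with a value above 0 (y axis), with 1 deposited value per condition: blue circles for blue light and black squares for darkness. The circle and the square lie within 1.63-fold of each other in the 9 tested rows, and the 3 longest lines belong to rows without a valid test that are listed at 0 in 1 condition.

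In the plot of both conditions the 3 rows listed at 0 in 1 condition stand apart. Among rows without a valid test and above 0 in both conditions, EPlCMEG00000000086 differs 3.37-fold (higher in darkness) at low levels. Its values are 0.544 FPKM under blue light and 1.83 FPKM in darkness. EPlCMEG00000000027, also without a valid test, differs 1.44-fold (higher in darkness), less than the tested EPlCMEG00000000036 at 1.63-fold (higher in darkness).

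The authors' test was available for 9 of the 97 rows: 4 nuclear, 4 plastid and 1 mitochondrial, all of 200 bp or longer. A row counts as called here when its deposited q-value is under 0.05 and its test status is valid. Of the 9 noncoding RNA rows, 0 were called in the authors' deposited table, where 53.2% of all 4503 tested rows were called, 27.1% higher and 26.1% lower under blue light. None of the 9 had an unadjusted p under 0.05 in that table, where the smallest was 0.21. The q-values ran from 0.28 for EPlCMEG00000000057 to 0.82 for EPlCMEG00000000001. The test compared 2 libraries a condition.

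By the authors' deposited table, 7 of the 9 were higher and 2 lower under blue light, and their median log2 fold change was 0.30, where the median of all tested rows was -0.017 with quartiles at -0.65 and 0.74. The 4 nuclear rRNA rows had log2 fold changes of 0.38 (EPlCMEG00000000057), 0.28 (EPlCMEG00000000089), 0.16 (EPlCMEG00000000070) and -0.30 (EPlCMEG00000000047) in that table. The plastid rows had 0.41 (EPlCMEG00000000001), 0.30 (EPlCMEG00000000031), 0.30 (EPlCMEG00000000084) and -0.70 (EPlCMEG00000000036), and the mitochondrial row EPlCMEG00000000026 had 0.37, all in the authors' deposited table.

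The smallest change of any called row was 0.45 on the log2 scale, and 8 of the 9 noncoding RNA rows lay under it. Of all tested rows 31.8% had a change no larger than 0.41, the second largest of the 9. For EPlCMEG00000000036, the exception, 51.4% of tested rows had a change no larger than its own, and 16.8% of those were called.

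**Figure D3:**
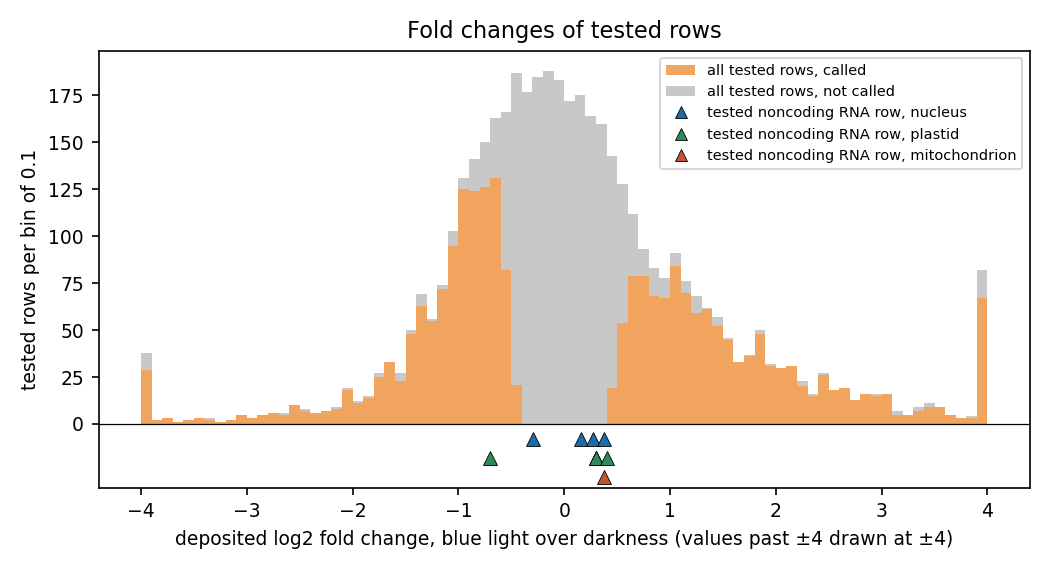
Number of tested rows (y axis) per bin of 0.1 of the deposited log2 ratio, blue light over darkness (x axis, values past 4 in either direction drawn at the ends), with called rows in orange and rows not called in grey; triangles below the axis mark the 9 tested noncoding RNA rows by compartment. All 9 triangles lie between -0.70 and 0.41, and 8 of them lie in the central range that holds no called row.

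The histogram places 8 of the 9 noncoding RNA rows in the band around 0 without calls, and EPlCMEG00000000036 just outside it.

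The deposited FPKM are pooled over the 2 libraries of a condition, but their digits hold the separate libraries. For a row with a locus of its own, each value is the mean of a whole number of fragments in each library, divided by that library's depth and the usable length of the row. For 2801 of 3781 rows tried, just 1 pair of blue light and darkness solutions also matched the deposited log2 fold change. Of these rows, 6 were noncoding RNA rows. Solutions by accident are counted here and below for each condition alone, before that match. In rows where a solution by accident was unlikely (under 0.05 expected), one was found for 99.9% of 1581 blue light values and 99.8% of 1137 darkness values. The recovered rows held 190051 and 148292 fragments under blue light and 277068 and 211014 in darkness. The libraries are called deeper and shallower within a condition, since nothing in the table ties them to the replicate numbers of the labels.

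The 2 libraries of a condition differed in the recovered rows, most under blue light. EPlCMEG00000000026 of the mitochondrion had 91 fragments in the deeper and 7 in the shallower blue light library, against 27 in the deeper and 71 in the shallower darkness library. In FPKM these are 126 (95% exact Poisson interval 102 to 155) and 12.6 (5.06 to 25.9) under blue light, and 24.0 (15.8 to 35.0) and 83.3 (65.1 to 105) in darkness. The intervals cover counting error only. The 2 blue light libraries lie above and below both darkness libraries, so the conditions overlapped.

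The nuclear rRNA rows had the same order of libraries. Their split takes each copy to hold whole fragments, and how fragments were divided among the copies was not tested. EPlCMEG00000000089 had 197 fragments in the deeper and 16 in the shallower blue light library, against 83 in the deeper and 150 in the shallower darkness library; in FPKM these are 224 and 23.5 under blue light and 60.4 and 144 in darkness. For this row accident would give 0.369 further solutions under blue light and 0.705 in darkness, the most of the 6, so its split is the least certain; EPlCMEG00000000047 (0.067 under blue light and 0.215 in darkness) and EPlCMEG00000000070 (0.084 in darkness) also lie over 0.05. EPlCMEG00000000057 had 87 and 6 fragments in the deeper and shallower blue light libraries, against 24 and 68 in the deeper and shallower darkness libraries; in FPKM these are 98.6 and 8.81 under blue light and 17.4 and 65.1 in darkness. In both rows the deeper blue light library was the highest of the 4 and the shallower blue light library the lowest.

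The longer rRNA genes followed. EPlCMEG00000000070 had 88 and 5 fragments in the deeper and shallower blue light libraries, against 36 and 73 in the deeper and shallower darkness libraries; in FPKM these are 47.8 and 3.51 under blue light and 12.5 and 33.3 in darkness. EPlCMEG00000000047 had 122 and 10 fragments in the deeper and shallower blue light libraries, against 97 and 123 in the deeper and shallower darkness libraries; in FPKM these are 66.2 and 7.02 under blue light and 33.7 and 56.1 in darkness. Again the blue light libraries took the highest and the lowest place. The untested EPlCMEG00000000086 had 2 and 0 fragments under blue light and 0 and 8 in darkness, so its few fragments lay in the deeper blue light and the shallower darkness library.

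**Figure D4:**
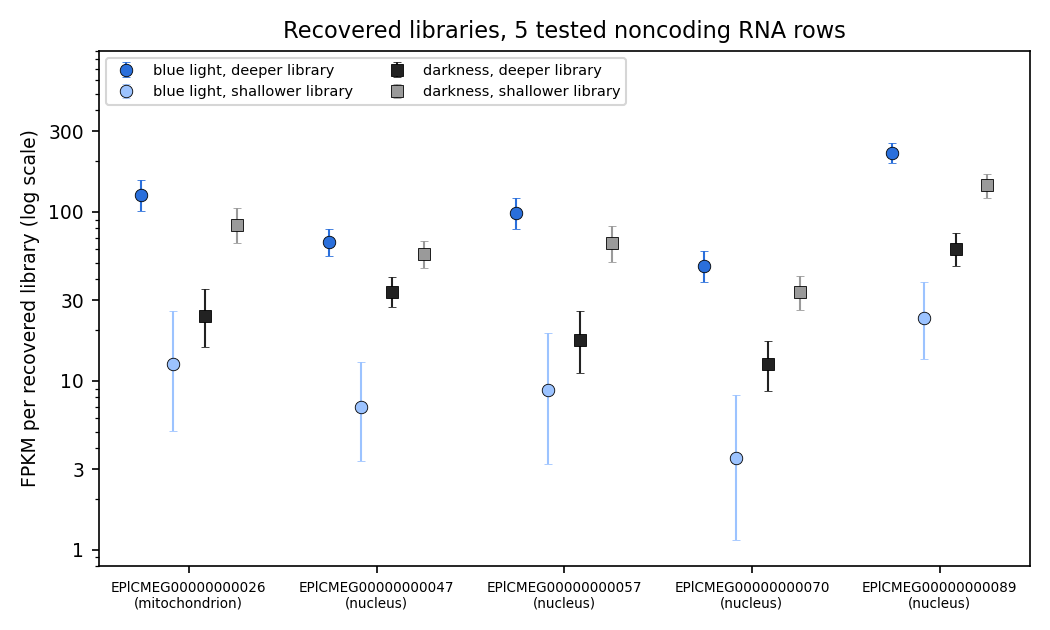
FPKM per recovered library (y axis, log scale) of the 5 tested noncoding RNA rows that could be split (x axis), with the 2 blue light libraries as circles and the 2 darkness libraries as squares; bars are 95% exact Poisson intervals of the fragment count. In each row the deeper blue light library is the highest, followed by the shallower darkness library, the deeper darkness library and the shallower blue light library.

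The plot of separate libraries shows 1 order of the 4 libraries in all 5 rows, with the darkness libraries between the blue light libraries.

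Other rows differed far less between libraries. Among 2060 recovered rows with at least 50 fragments in each condition, the 5 noncoding RNA rows were 9.43-fold to 13.6-fold higher in the deeper than in the shallower blue light library, a log2 ratio of 3.24 to 3.77. The same log2 ratio over the 2055 other rows had a median of -0.025 and an SD of 0.34, with the percentiles 1 and 99 at -0.75 and 0.80. In darkness the 5 rows were 1.67-fold to 3.73-fold higher in the shallower library, a log2 ratio of deeper over shallower of -1.90 to -0.74, where the other rows had a median of -0.0087 and an SD of 0.27. There 14 of the other rows (0.681%) were as far to that side as the least extreme noncoding RNA row. These ratios compare libraries and not the conditions.

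Only 6 of the 2060 rows were more than 4-fold higher in the deeper than in the shallower blue light library, the 5 noncoding RNA rows and CMV047C. CMV047C, a plastid row (29482 to 30562) named here after its values were seen, had 220 and 12 fragments in the deeper and shallower blue light libraries, against 51 and 82 in the deeper and shallower darkness libraries. This is the same order as in the noncoding RNA rows, with 0.266 further solutions by accident under blue light and 0.225 in darkness. In the authors' deposited table it had 238 FPKM under blue light and 103 FPKM in darkness, with a log2 fold change of 1.20 and a q-value of 0.00021. Its log2 ratio was -1.72 without the deeper and 2.10 without the shallower blue light library, so its direction turned with the library left out. Without the deeper darkness library it was 0.76, and without the shallower one 1.85. The next row after these 6 was 3.21-fold higher in the deeper blue light library.

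**Figure D5:**
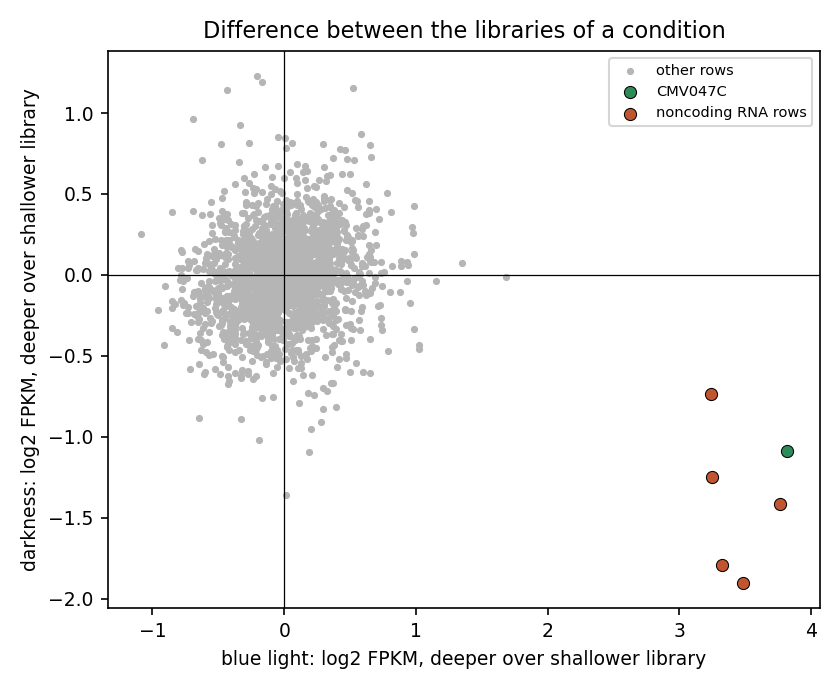
Log2 ratio of FPKM in the deeper over the shallower blue light library (x axis) against the same ratio for the darkness libraries (y axis) for 2060 recovered rows; red points are the 5 noncoding RNA rows, the green point is the plastid row CMV047C and grey points are the other rows. The 6 coloured points lie at the lower right, from 3.24 to 3.82 on the x axis and from -1.90 to -0.74 on the y axis, away from the grey points around 0.

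The plot of library ratios shows these 6 rows unequal between the libraries of both conditions. The row next in order toward the deeper blue light library, CMN267C, also named after its values were seen, had log2 ratios of 1.68 under blue light and -0.010 in darkness.

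As a share of recovered fragments, the 6 noncoding RNA rows made up 0.309% (95% Wilson interval 0.285 to 0.335%) of the deeper and 0.0297% (0.0221 to 0.0398%) of the shallower blue light library. They made up 0.0964% (0.0855 to 0.109%) of the deeper and 0.234% (0.214 to 0.255%) of the shallower darkness library. The 26 other recovered plastid rows made up 0.368% and 0.246% of the deeper and shallower blue light libraries and 0.269% and 0.330% of the deeper and shallower darkness libraries. The difference under blue light rests on CMV047C: without it the other 25 rows made up 0.252% and 0.238% of the deeper and shallower blue light libraries. The 6 other recovered mitochondrial rows, with 13 to 97 fragments a library, made up 0.0121% and 0.00877% of the deeper and shallower blue light libraries and 0.0350% and 0.0256% of the deeper and shallower darkness libraries. The part of cell number, RNA quality or library preparation in the unequal shares was not tested, and less RNA per cell cannot be told apart from a different recovery of that RNA.

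EPlCMEG00000000084, the noncoding RNA row with the highest level under blue light, could not be split. Its values allow 51 solutions under blue light, with 2554 to 3283 fragments in total, and 94 in darkness, with 3168 to 4153 fragments. Its difference between conditions was 1.23-fold, and whether its libraries were as unequal as those of the rRNA rows cannot be told.

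Since the libraries of a condition differed more than the conditions did, single libraries set the direction. With all libraries the median log2 ratio of mean FPKM of the 5 split rows was 0.28. Without the deeper blue light library the 5 ratios ran from -2.71 to -2.09, and without the shallower one from 0.56 to 1.26. Leaving out the deeper darkness library gave -0.62 to -0.22, and leaving out the shallower one gave 0.12 to 1.62. EPlCMEG00000000047, for example, was at -0.30 with all libraries, at -2.68 without the deeper and at 0.56 without the shallower blue light library.

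A limma fit on log2(FPKM + 1) of the recovered libraries, added after the data were seen, called 0 of the 5 rows, where 55.8% of 2659 rows tested were called at an adjusted p under 0.05. The 5 log2 differences ran from -0.94 for EPlCMEG00000000047 to -0.14 for EPlCMEG00000000026, with standard errors of 0.71 to 0.84 and limma adjusted p from 0.28 to 0.89. The smallest unadjusted p in limma was 0.21. All 5 differences are below 0 on this scale, while 4 of the 5 deposited ratios are above 0, because the mean of logs weights the low library more than the log of the mean does. Neither sign is larger than the spread between libraries.

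With single libraries left out, limma made calls in opposite directions. It called all 5 rows lower under blue light without the deeper blue light library (limma adjusted p from 3.4e-06 to 0.0061) and 4 of 5 higher without the shallower one (limma adjusted p from 0.00055 to 0.038, and 0.12 for EPlCMEG00000000047). Without the deeper darkness library it called all 5 lower (limma adjusted p from 0.0045 to 0.025), and without the shallower one 0 (limma adjusted p from 0.12 to 0.85). These fits take the spread of a lone library from the condition that still has 2. The calls thus depend on which library is left out, and the noncoding RNA rows gave no difference between blue light and darkness that holds in all of these fits.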

How the data were processed

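RNA was sequenced from 2 blue light and 2 darkness libraries. Sample titles set the groups, since all 4 samples carry the blue light treatment text in the labels. The design text speaks of biological duplicates, but no label names separate cultures; p-values then measure only the spread between libraries, which may be technical. Per the submitters' processing notes, the authors used TopHat2 2.0.5 for alignment and Cuffdiff for the comparison. Not given in the sources used here: Cuffdiff's version and normalization, the build, the annotation and the use of strand.

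Per the file headers, the deposited values are 1 FPKM per condition, a log2 fold change (blue light over darkness), a test statistic (a score, not used), a p-value and a q-value, all made by the authors. The deposited log2 values were the log2 ratio of FPKM to within 1.35e-05. Test status was valid for 4503 rows, 558 were not tested and 39 had low data.

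Noncoding RNA rows were taken by identifier; members and lists were chosen with earlier results of these data known. Nuclear rows were named by overlap with RefSeq ASM9120v1 (4750 gene identifiers matched, 92.3% of them within 3 bp at both ends). Exact reference matches have deposited starts 1 bp lower. All tested noncoding RNA rows were to be named, and of untested ones the highest 3 per compartment and span class; rows at 0, and neighbours or rows of equal value, were named after their values were seen.

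Whole fragments per library were recovered from FPKM at unshared loci of at least 650 bp, by solving for 2 libraries a condition. Solutions had to lie within the rounding of 6 digits plus a relative 1e-06. Rows were kept where 1 pair of solutions also matched the deposited log2 fold change. The fitted length taken off the span was 162 to 173 bp, and the scaled depths were 540167 and 418040 fragments under blue light and 845127 and 643989 in darkness. Recovery and the limma fit were tested on simulated data. Tests used limma 3.58.1 in R 4.3.3 with Benjamini-Hochberg adjustment over all rows tested and a pseudocount of 1 FPKM. Alternatives were other q-value and fold limits, pseudocounts, centring, span limits and leaving out shared loci or single recovered libraries. Sequences were not analysed here.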

Additional observations from a re-analysis of the deposited data

Results flagged for a closer look

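EPlCMEG00000000034, at the nuclear tRNA gene CMH084R, had 108 FPKM under blue light and was listed at 0 in darkness. It was singled out as the only noncoding RNA row without a valid test whose level under blue light was above that in darkness. Its value equals that of CMV068C, another row of 135 bp, in all 6 digits. EPlCMEG00000000015 and EPlCMEG00000000092 have the reverse pattern, at 0 under blue light and 2019 and 1152 FPKM in darkness.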

How the results depend on the processing

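The count of noncoding RNA rows called was 0 by the authors' calls and in limma with pseudocounts of 0.1, 1 and 10 FPKM. The q-value, fold, low-value, centring and shared-locus alternatives only add limits to the authors' calls. They could not change a count of 0. With 1 recovered library left out, limma called 0 to 5 rows: 0 to 4 higher and 0 to 5 lower under blue light. The median log2 ratio of mean FPKM of the 5 split rows then ran from -2.23 to 1.13, including -0.28 without the deeper darkness library. The same ratio turned direction in single rows, with ranges of -2.09 to 1.53 for EPlCMEG00000000026, -2.68 to 0.56 for EPlCMEG00000000047, -2.23 to 1.62 for EPlCMEG00000000057, -2.71 to 1.06 for EPlCMEG00000000070 and -2.12 to 1.13 for EPlCMEG00000000089, and in the summed rRNA rows, with -2.15 to 1.19 for the shorter and -2.73 to 0.72 for the longer genes; the cause was not tested. Of 27 other settings of single rows (pseudocounts and centring), 0 turned direction, but these settings could not show otherwise. The same pseudocount in both conditions cannot turn a ratio. Centring took off the median log2 fold change of all tested rows, -0.017, where the deposited ratio nearest 0 was 0.16 (EPlCMEG00000000070). The share of all FPKM was 0.388% under blue light and 0.629% in darkness, against 0.358% under blue light and 0.291% in darkness over tested rows only, and 0.358% under blue light and 0.404% in darkness over rows of 200 bp or longer, where fewer rows are summed. No paired analysis was possible because each condition has 1 deposited value and no replicate number in its column; for the same reason the labelled replicates could not be left out. Relative to the level, counting error is widest in the shallower blue light library. There the 5 split rows had 5 to 16 fragments at a scaled depth of 418040, against 87 to 197 at 540167 in the deeper one.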
